A study of Mus musculus with 6 samples.

Results

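The effect of anti-Lag3 on T cells meeting their antigen again was read from 4 samples, 2 from mice given anti-Lag3 and 2 from mice given isotype antibody, over the 11877 of 47643 annotated genes that had at least 10 reads summed over all 6 samples of the experiment. The other 2 samples came from mice given anti-PD1. All of the mice were Tg4 *Nr4a3*-Tocky *Il10*-GFP (Tiger) mice, whose CD4+ T cells carry a transgenic receptor for a myelin basic protein peptide, and all received 80 μg of the 4Y form of that peptide under the skin. At 24 h they were injected in the abdomen with 800 μg of antibody, and 30 min later a second dose of 8 μg peptide followed. Spleens were taken 4 h after the second dose. The anti-Lag3 antibody was a rat IgG1 (clone CB97W in the sample labels, C9B7W in the methods of the study), anti-PD1 was clone 29F.1A12, a rat IgG2a, and the isotype control was an equal mix of rat IgG1 and rat IgG2a. The isotype mice therefore had the same first and second peptide doses as the treated mice, and received both control antibodies where the anti-Lag3 mice received a single IgG1. CD4+ T cells that were both Timer-Blue+ and Timer-Red+ were sorted for 3′ mRNA sequencing. The Timer protein is driven by *Nr4a3*, is blue at first and turns red as it matures, so that the gate holds cells that had signaled on both occasions or without a break. Responding cells alone were therefore compared, and the share of cells that responded is not part of these measurements. A further replicate batch was left out by the study as an outlier and was not analysed here.

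LAG-3 is an inhibitory receptor of activated T cells, related in structure to CD4, that binds MHC class II and some soluble ligands and is cut from the cell surface by the proteases ADAM10 and ADAM17. PD-1 is an inhibitory receptor that acts mainly on signals from the T cell receptor and from CD28. T cell receptor signaling induces NR4A, EGR, AP-1, NF-κB and IRF4 programs, costimulatory receptors such as OX40, GITR and ICOS, and cytokines, and the strength of the signal sets how much of each is made. The comparison asks how far blocking LAG-3 shifts these programs within cells that responded.

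The 4 libraries had between 2210513 and 2648920 counted reads, and the anti-PD1 libraries 2107715 and 2413599. At these depths 3 reads, taken as the smallest detectable number, correspond to between 1.11 and 1.44 CPM (reads scaled to a common library size, with TMM factors), a limit that covers counting error only. *Gm42418*, a lincRNA gene that overlaps a ribosomal RNA repeat, took between 17.4% and 21.0% of the reads. The T cell markers were present in each library, with *Cd4* at 174 and 179 CPM in the isotype samples and at 190 and 181 CPM in the anti-Lag3 samples. Summed over the 10 CD4 T cell markers, the level was 2640 and 2800 CPM with isotype and 2850 and 2620 CPM with anti-Lag3. Nothing in the labels says that replicates came from separate mice, whereas the methods of the study describe replicate mice stained apart and sorted side by side. The p-values measure the spread between these samples.

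Anti-Lag3 moved few genes. By edgeR's quasi-likelihood test, 5 genes passed an adjusted p of 0.05 between anti-Lag3 and isotype, 0.0421% of the genes tested, with 3 higher (*Tnip3*, *Il12rb2* and *Samhd1*) and 2 lower (*Hdac7* and *Gm42418*). The same fit called 107 genes between anti-PD1 and isotype (0.901%) and 36 between anti-PD1 and anti-Lag3 (0.303%). At an unadjusted p under 0.05 there were 708 genes between anti-Lag3 and isotype, 355 higher (2.99%) and 353 lower (2.97%), against 964 between anti-PD1 and isotype and 776 between anti-PD1 and anti-Lag3. Both anti-Lag3 samples lay above both isotype samples in 2058 genes (17.3%) and below both in 2049 genes (17.3%). These contrasts have isotype or anti-Lag3 samples in common and are not independent of each other.

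The count of 5 depended on the libraries in the fit. It was 0 when only the 4 isotype and anti-Lag3 samples were fitted, with 653 genes at an unadjusted p under 0.05, and also 0 when either anti-PD1 sample was left out of the edgeR fit (654 genes without anti-PD1 1, 649 without anti-PD1 2). Without isotype 1 it was 13, of which 2 were among the 5 (*Tnip3* and *Il12rb2*), and without isotype 2 it was 1 (*Gm42418*). Without anti-Lag3 1 it was 19, of which 1 was among the 5, and without anti-Lag3 2 it was 13, which included all 5. With DESeq2 in place of edgeR, *Hdac7* alone was called.

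Among the 5433 genes with a mean of at least 20 CPM, where counting error is smaller, the median size of the log2 fold change was 0.139 between anti-Lag3 and isotype. For anti-PD1 against anti-Lag3 it was also 0.139, and for anti-PD1 against isotype it was 0.144. The comparisons parted in their largest values. The 95th percentile was 0.467 for anti-Lag3 against isotype, 0.490 for anti-PD1 against anti-Lag3 and 0.575 for anti-PD1 against isotype. Differences over 1 on the log2 scale were found in 7 genes (0.129%), 15 genes (0.276%) and 51 genes (0.939%), in the same order. The 7 genes were *Il12rb2*, *Il21*, *Tnip3*, *D030056L22Rik*, *2310010J17Rik* and *Sptssa* on the higher side and *Ddit3* on the lower side, and of these edgeR called *Il12rb2* and *Tnip3*.

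**Figure D1:**
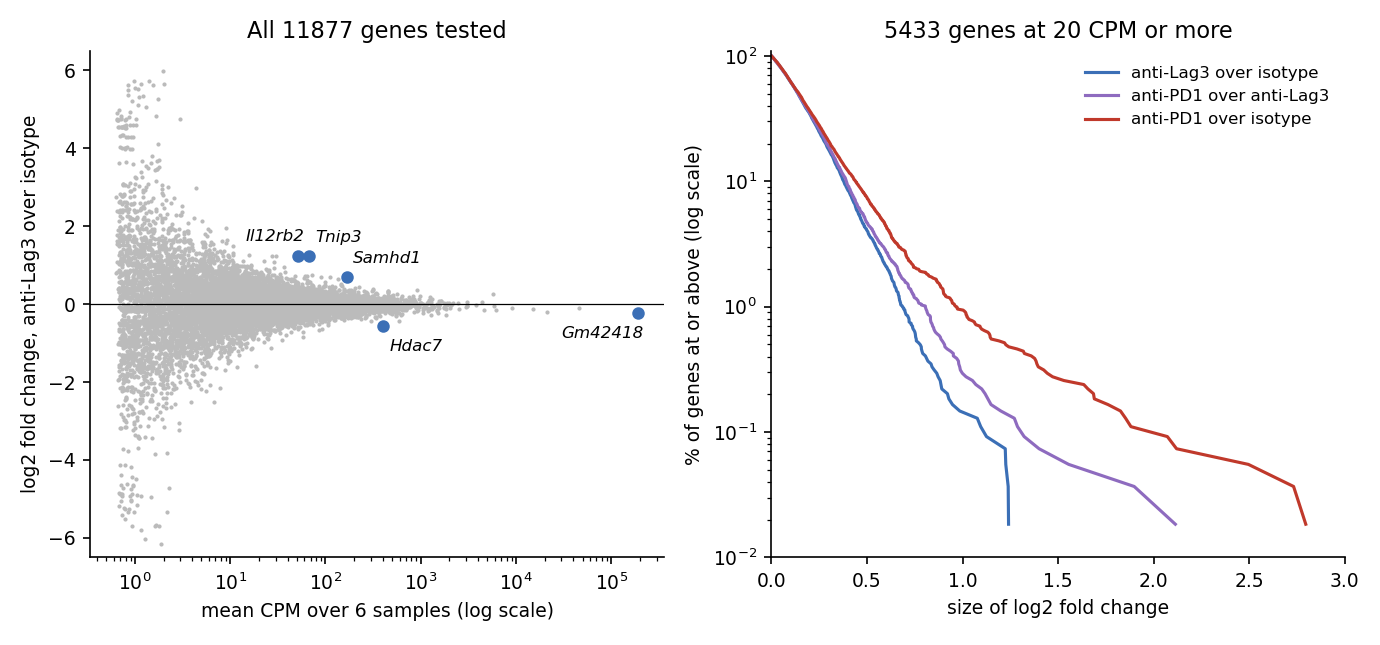
Left, log2 fold change of anti-Lag3 over isotype against the mean CPM of the gene on a log axis, 1 point per gene, with the 5 called genes in blue. Right, share of the 5433 genes at 20 CPM or more whose log2 fold change is at least as large as the value on the x axis, with the y axis on a log scale. The curve for anti-Lag3 over isotype ends at 1.24, and 7 genes exceed 1, against 51 for anti-PD1 over isotype.

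The spread between the 2 anti-Lag3 samples was about as wide as the distance from isotype. Over all genes, the median size of the log2 CPM difference was 0.321 between the anti-Lag3 samples, 0.325 between the isotype samples and 0.303 between the anti-PD1 samples. Pairs of an anti-Lag3 and an isotype sample differed by 0.324 to 0.340. Restricted to genes at 20 CPM or more, the values were 0.188, 0.180 and 0.171 within groups and 0.184 to 0.194 for the 4 pairs of an anti-Lag3 and an isotype sample. In these genes, 38 differed more than 2-fold between the anti-Lag3 samples, 10 of them higher and 28 lower in anti-Lag3 2, and 51 differed as much between the isotype samples. Counts of replicates differed by more than sampling noise, at a chi-square divided by its degrees of freedom of 2.84 for anti-Lag3, 2.79 for isotype and 2.33 for anti-PD1, so each sample was taken as a separate library.

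**Figure D2:**
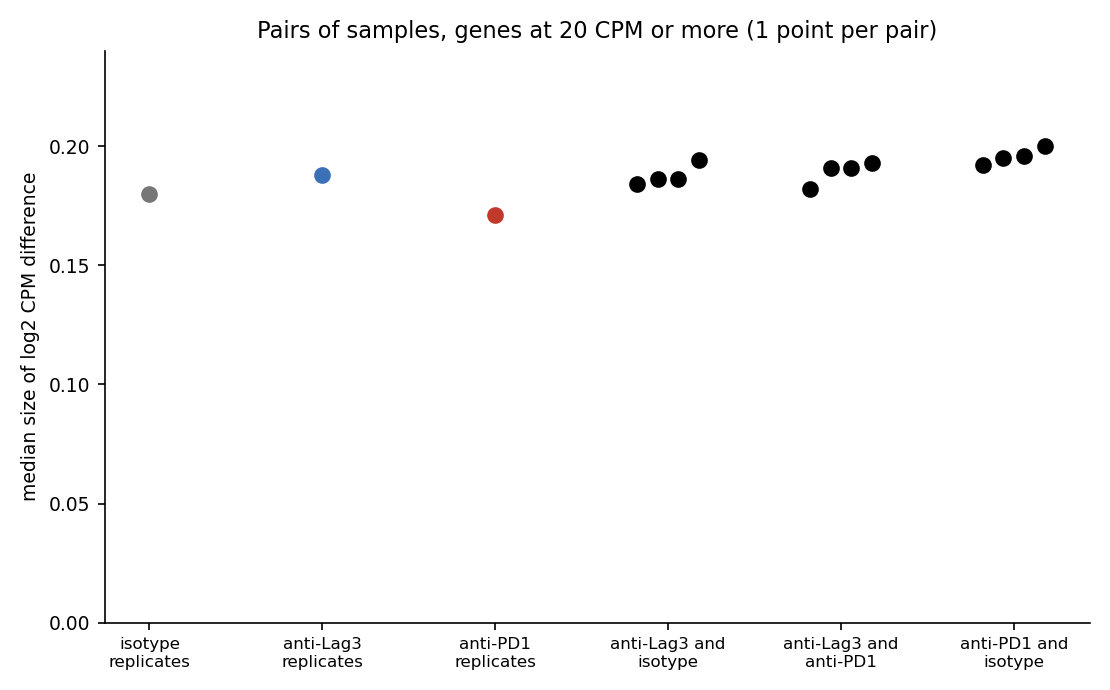
Median size of the log2 CPM difference over the 5433 genes at 20 CPM or more, 1 point for each pair of samples, for pairs within a group and between groups. The anti-Lag3 replicates lie at 0.188, within the 0.184 to 0.194 of the pairs of an anti-Lag3 and an isotype sample.

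*Tnip3* encodes ABIN-3, a protein induced by NF-κB that binds A20 and restrains NF-κB signaling. *Tnip3* (ENSMUSG00000044162, GRCm38 chromosome 6 from 65525313 to 65634040, plus strand) had 27.8 and 24.2 CPM in the isotype samples and 75.9 and 46.1 CPM in the anti-Lag3 samples, from 180 and 124 reads. It rose by 1.23 on the log2 scale (standard error 0.22, adjusted p = 0.0161 by edgeR), a fold of 2.34. The groups did not overlap, although anti-Lag3 2 lay nearer to isotype than anti-Lag3 1 did. The log2 fold change of *Tnip3* was 0.82 without anti-Lag3 1, where the call was lost, and 1.56 without anti-Lag3 2. The anti-PD1 samples, at 116 and 110 CPM, lay above both, and the difference from anti-Lag3 also passed the test (log2 fold change 0.89, standard error 0.19, adjusted p = 0.0167 by edgeR). By DESeq2 the adjusted p for anti-Lag3 against isotype was 0.0942.

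*Il12rb2* encodes the signaling chain of the interleukin-12 receptor, which is induced in T helper 1 cells. This gene (ENSMUSG00000018341, chromosome 6 from 67291318 to 67376188, minus strand) had 17.4 and 12.9 CPM with isotype and 43.0 and 28.6 CPM with anti-Lag3, from 102 and 77 reads. It rose by 1.24 on the log2 scale (standard error 0.26, adjusted p = 0.0497 by edgeR), a fold of 2.36 with an adjusted p just inside the threshold. The log2 fold change of *Il12rb2* was 0.92 without anti-Lag3 1, where the call was lost, and 1.52 without anti-Lag3 2. DESeq2 gave an adjusted p of 0.290. With anti-PD1 the samples were at 100 and 109 CPM, and the step from anti-Lag3 to anti-PD1 was called as well (log2 fold change 1.56, standard error 0.21, adjusted p = 2.49e-05 by edgeR). The gene is overlapped on the other strand by *Serbp1*, and the strand setting of the counting is not given in the sources used here.

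*Samhd1* encodes a phosphohydrolase that lowers the pool of deoxynucleotides and is counted among interferon-stimulated genes. Its samples (ENSMUSG00000027639, chromosome 2 from 157097533 to 157135265, minus strand) were at 114 and 116 CPM with isotype and at 195 and 174 CPM with anti-Lag3. *Samhd1* rose by 0.68 on the log2 scale (standard error 0.14, adjusted p = 0.0336 by edgeR), a fold of 1.61, and the gap between groups exceeded the gap within either group. The log2 fold change of *Samhd1* ran from 0.60 without anti-Lag3 1, where the call was lost, to 0.77 without anti-Lag3 2. The anti-PD1 samples, at 188 and 228 CPM, did not pass the test against anti-Lag3 (log2 fold change 0.18, standard error 0.13, adjusted p = 0.903 by edgeR). The DESeq2 value for anti-Lag3 against isotype was an adjusted p of 0.122.

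*Hdac7* encodes a class IIa histone deacetylase that is abundant in lymphocytes and leaves the nucleus on T cell receptor signaling. The gene (ENSMUSG00000022475, chromosome 15 from 97792664 to 97844502, minus strand) was at 554 and 546 CPM with isotype and at 348 and 396 CPM with anti-Lag3. *Hdac7* fell by 0.56 on the log2 scale (standard error 0.11, adjusted p = 0.0161 by edgeR), so that isotype stood 1.48-fold above anti-Lag3, with no overlap. The log2 fold change of *Hdac7* was −0.48 without anti-Lag3 1, where the call was lost, and −0.65 without anti-Lag3 2. It was the one gene of the 5 that DESeq2 also called (adjusted p = 0.00914). With anti-PD1 it was at 312 and 278 CPM, and the difference from anti-Lag3 did not pass (log2 fold change −0.34, standard error 0.11, adjusted p = 0.317 by edgeR). Of the other 10 histone deacetylase genes tested, a pair of sirtuins included, none was called by edgeR and only *Hdac8* had an unadjusted p under 0.05.

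*Gm42418* (ENSMUSG00000098178, chromosome 17 from 39846958 to 39848788) was at 219163 and 195838 CPM with isotype and at 182454 and 170713 CPM with anti-Lag3, a fall of 0.23 on the log2 scale (standard error 0.04, adjusted p = 0.0161 by edgeR). The log2 fold change of *Gm42418* was −0.15 without isotype 1, where the call was lost, and −0.31 without isotype 2. It is not a protein-coding gene, and reads of ribosomal RNA left in a library can be assigned to it. DESeq2 gave an adjusted p of 1, whereas limma-voom gave an adjusted p of 1.59e-07. With *Gm42418* and the mitochondrial ribosomal RNA genes left out of the table, 3 genes were called (*Hdac7*, *Samhd1* and *Tnip3*).

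*Tnfrsf18*, which encodes the costimulatory receptor GITR, came next in order. Its samples were at 119 and 109 CPM with isotype and at 196 and 168 CPM with anti-Lag3 (log2 fold change 0.68, standard error 0.14, adjusted p = 0.0508 by edgeR). With the replicate number as a block the adjusted p of *Tnfrsf18* by edgeR was 0.0169, which passed the threshold. The groups were separate, and the anti-PD1 samples, at 187 and 248 CPM, overlapped with those of anti-Lag3.

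**Figure D3:**
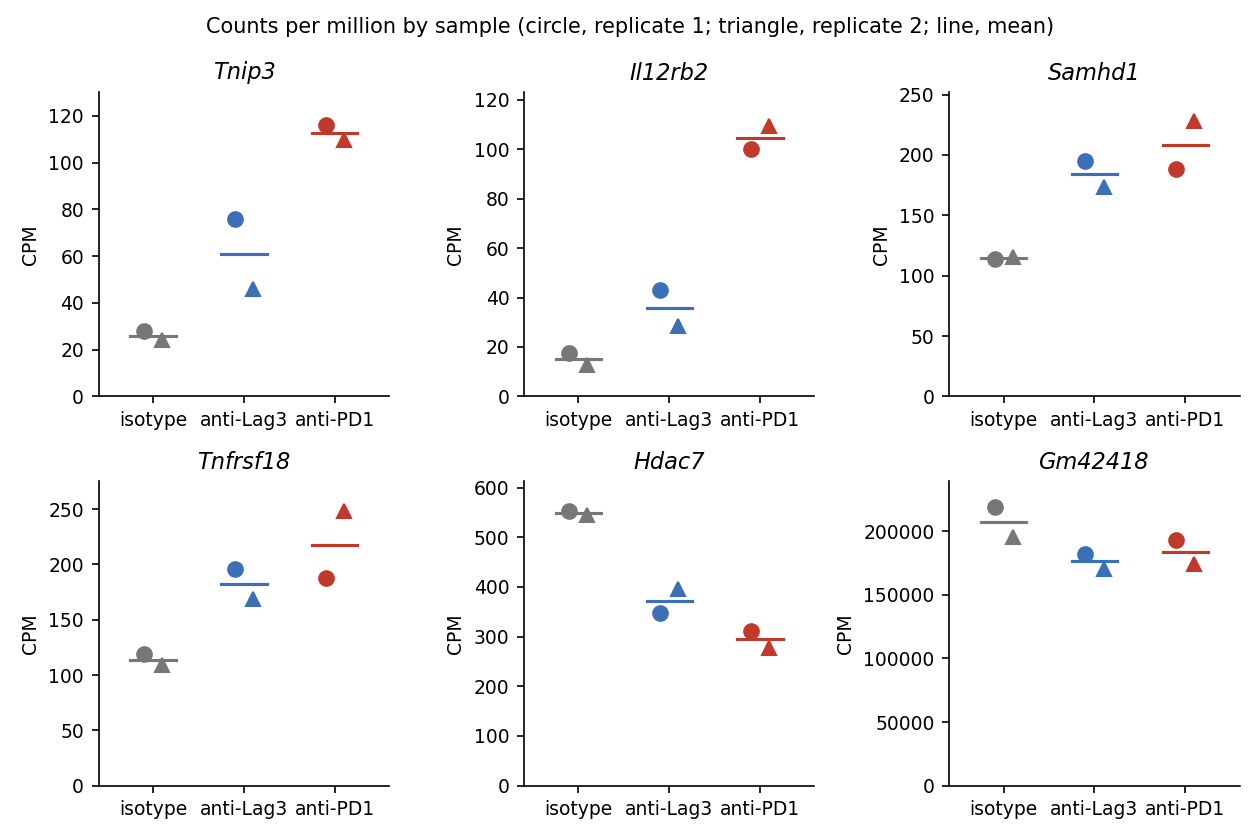
CPM of the 5 called genes and of *Tnfrsf18* in each sample, on linear axes that start at 0, with circles for replicate 1, triangles for replicate 2 and lines for the mean of the 2 samples. In all 6 genes the anti-Lag3 samples are separate from the isotype samples, and for *Tnip3* and *Il12rb2* they also lie below both anti-PD1 samples.

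The stretch of 250 bases before the start of transcription is shown for 2 of the genes that rose, as the place where induced factors act (RefSeq, GRCm38.p6, 5′ to 3′ on the gene's own strand). It was searched on both strands for the AP-1 motif TGANTCA and for the STAT motif TTCNNNGAA, with matches in capitals. *Il12rb2* (chr6:67376189-67376438, minus strand) and *Samhd1* (chr2:157135097-157135346, minus strand) each held 1 STAT match and no AP-1 match, and *Tnip3* held neither. The starts are those of RefSeq and differ from the gene bounds given above for 2 of these genes. The *Samhd1* window overlaps its bounds, and the *Tnip3* window (chr6:65590148-65590397) lies inside them.
Il12rb2: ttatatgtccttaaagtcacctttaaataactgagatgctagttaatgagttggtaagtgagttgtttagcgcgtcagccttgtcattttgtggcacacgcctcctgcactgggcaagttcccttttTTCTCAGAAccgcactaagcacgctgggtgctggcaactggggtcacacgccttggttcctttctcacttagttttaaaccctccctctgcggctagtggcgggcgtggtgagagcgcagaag
Samhd1: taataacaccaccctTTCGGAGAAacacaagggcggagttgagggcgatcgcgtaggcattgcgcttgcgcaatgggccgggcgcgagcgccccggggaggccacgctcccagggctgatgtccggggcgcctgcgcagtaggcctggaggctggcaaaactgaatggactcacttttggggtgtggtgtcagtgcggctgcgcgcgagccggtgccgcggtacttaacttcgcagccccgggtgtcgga
Of all 32851 promoter windows in the RefSeq table, 7.02% held the STAT motif and 6.75% the AP-1 motif. A match describes these letters and says nothing of binding.

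The receptor itself and its partners gave little signal. *Lag3* mRNA was at 3.30 and 5.64 CPM with isotype and at 7.59 and 2.6 CPM with anti-Lag3, near the limit of detection, and the anti-Lag3 samples lay on both sides of the isotype samples (log2 fold change 0.15, standard error 0.67, adjusted p = 0.989 by edgeR). An antibody acts on the protein, so this level is no check of the labels. Of 9 genes for LAG-3, its ligands and its shedding enzymes, 7 were tested and none was called by edgeR. *Adam10*, the most abundant, was at 59.4 and 54.7 CPM with isotype and at 73.4 and 54.6 CPM with anti-Lag3. *H2-Ab1*, an MHC class II chain, had 14.1 and 10.5 CPM against 2.11 and 9.29 CPM (log2 fold change −1.07, standard error 0.52, adjusted p = 0.818 by edgeR). MHC class II is carried mainly by B cells and other antigen-presenting cells, whose markers are given below.

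No gene of the NR4A and EGR class passed the test between the groups. *Nr4a3*, which drives the reporter used for sorting, was at 51.4 and 45.1 CPM with isotype and at 40.9 and 36.8 CPM with anti-Lag3 (log2 fold change −0.31, standard error 0.22, adjusted p = 0.915 by edgeR), so that both anti-Lag3 samples lay below both isotype samples. *Nr4a1* was at 52.8 and 33.0 CPM against 38.8 and 53.1 CPM, with overlap. None of the 10 NR4A and EGR genes tested had an unadjusted p under 0.05, against 2.99% of all genes higher and 2.97% lower. The activation marker *Cd69* was at 72.1 and 60.4 CPM with isotype and at 36.3 and 73.5 CPM with anti-Lag3, so that its anti-Lag3 samples differed by 1.00 on the log2 scale. *Il2ra*, which encodes CD25, was at 427 and 460 CPM against 571 and 416 CPM, also with overlap.

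Of 15 costimulatory receptors tested, 10 had a positive log2 fold change and 4 of these an unadjusted p under 0.05 (26.7%, against 2.99% of all genes), while 1, *Cd226*, was lower at that level (6.67%, against 2.97%) and none was called by edgeR. The 4 were *Tnfrsf18*, *Icos*, *Tnfrsf4* and *Cd2*. *Icos* was at 740 and 696 CPM with isotype and at 928 and 910 CPM with anti-Lag3 (log2 fold change 0.36, standard error 0.09, adjusted p = 0.312 by edgeR). *Tnfrsf4*, which encodes OX40, was at 242 and 226 CPM against 328 and 274 CPM (log2 fold change 0.36, standard error 0.11, adjusted p = 0.608 by edgeR), and its log2 fold change was 0.22 without anti-Lag3 1. For both genes the groups were separate. *Tnfrsf9*, which encodes CD137, was at 59.4 and 64.8 CPM against 88.6 and 51.6 CPM and overlapped, and it was called between anti-PD1 and anti-Lag3, at 117 and 140 CPM with anti-PD1 (log2 fold change 0.89, standard error 0.18, adjusted p = 0.0116 by edgeR). Over the class the median log2 fold change was 0.07, and in the single samples the median stood 0.25 above isotype in anti-Lag3 1 and 0.08 above in anti-Lag3 2. Without anti-Lag3 2 the median was 0.25.

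Effector cytokines had a median log2 fold change of 0.99 from 10 genes tested of 20 listed, with 8 higher and 3 at an unadjusted p under 0.05 upward (30.0%, against 2.99% of all genes). The median stood 0.72 above isotype in anti-Lag3 1 and 0.94 in anti-Lag3 2, and the fitted median was 0.75 without anti-Lag3 1 and 0.58 without anti-Lag3 2. Most were near the limit of detection. *Il21*, a cytokine of T follicular helper and T helper 17 cells, was at 16 and 8.45 CPM with isotype and at 30.4 and 26.7 CPM with anti-Lag3 (log2 fold change 1.24, standard error 0.31, adjusted p = 0.281 by edgeR). *Lif* was at 54.2 and 37.4 CPM against 72.5 and 72.4 CPM, and *Il10*, an immunoregulatory cytokine, at 3.30 and 2.01 CPM against 5.48 and 8.17 CPM. In each of these 3 genes both anti-Lag3 samples lay above both isotype samples. *Gm12534* lies across *Il21* on the opposite strand and was at 11.8 and 4.03 CPM with isotype and at 19 and 5.20 CPM with anti-Lag3.

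Cytokine receptors were above isotype in 19 of 24 genes tested, with a median log2 fold change of 0.31, but only *Il12rb2* was called by edgeR. It alone was higher at an unadjusted p under 0.05 (4.17%, against 2.99% of all genes), and 2 genes were lower at that level (8.33%, against 2.97%), *Ifnar1* and *Tgfbr1*. The median was 0.39 above isotype in anti-Lag3 1 and 0.16 in anti-Lag3 2, and it was 0.14 without anti-Lag3 1. Among STAT and SOCS genes 14 of 19 were above isotype with a median of 0.17, which was −0.00238 without anti-Lag3 1. The feedback inhibitors *Socs3* and *Socs1* had an unadjusted p under 0.05 upward (10.5%, against 2.99% of all genes), and no member had one downward. *Socs3* was at 23.6 and 19.7 CPM against 44.7 and 29.7 CPM. *Stat4*, which relays interleukin-12 signals, was at 73.0 and 47.1 CPM with isotype and at 62.0 and 80.6 CPM with anti-Lag3, with overlap.

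In T cell receptor signaling and calcium-NFAT genes, 13 of 29 were higher. An unadjusted p under 0.05 was reached upward by *Malt1* and *Zap70* (6.9%, against 2.99% of all genes) and downward by none (against 2.97%). *Malt1*, a protease that relays antigen receptor signals, was at 109 and 64.8 CPM with isotype and at 148 and 120 CPM with anti-Lag3 (log2 fold change 0.63, standard error 0.17, adjusted p = 0.335 by edgeR). Its isotype samples differed by 0.75 on the log2 scale, more than the fold change between groups, and its log2 fold change was 0.29 without isotype 2. *Cd5*, an inhibitory receptor whose level follows signal strength, was at 42.4 and 41.5 CPM against 65.8 and 63.9 CPM, with narrow groups that did not overlap (log2 fold change 0.63, standard error 0.20, adjusted p = 0.593 by edgeR). *Irf4* was at 270 and 247 CPM against 310 and 276 CPM. *Irf8* was at 264 and 223 CPM against 270 and 271 CPM, and here anti-PD1 stood apart from anti-Lag3, at 411 and 384 CPM (log2 fold change 0.55, standard error 0.11, adjusted p = 0.0104 by edgeR).

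The study defined a TCR.strong score on 5 genes, partly from these samples, so their direction is no independent evidence. All 5 (*Tnip3*, *Icos*, *Tnfrsf4*, *Stat4* and *Irf8*) had a positive fitted log2 fold change with anti-Lag3, and *Tnip3* was called by edgeR. In 4 of them the groups were separate (80%, against 17.3% of all genes higher). An unadjusted p under 0.05 was reached by 3 (60%, against 2.99% higher). The median log2 fold change was 0.36, against 0.81 with anti-PD1. The deviation from isotype was 0.37 in anti-Lag3 1 and 0.34 in anti-Lag3 2. Without isotype 2 the log2 fold change of *Stat4* was −0.03 and that of *Irf8* was 0.03.

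A separate peptide dose experiment of the study, made without checkpoint antibody, gave lists of genes that were higher or lower in *Nr4a3*-reporter T cells with a strong than with a weak dose. Of the 332 tested genes raised by the strong dose at 4 h, 220 were above isotype with anti-Lag3. An unadjusted p under 0.05 was reached by 54 of them in the upward direction (16.3%, against 2.99% of all genes) and by 4 in the downward direction (1.20%, against 2.97%). The 3 genes that edgeR called higher, *Tnip3*, *Il12rb2* and *Samhd1*, were on this list. The median log2 fold change was 0.175, where it was 0.000707 over all genes tested. Both anti-Lag3 samples contributed, at 0.24 above isotype in anti-Lag3 1 and 0.135 in anti-Lag3 2, and the median was 0.09 without anti-Lag3 1 and 0.22 without anti-Lag3 2. With anti-PD1 the same genes had a median of 0.40 over isotype.

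The list of genes raised by the strong dose at 24 h lay on the same side. Of 85 tested, 58 were above isotype, with a median of 0.30 and with 0.27 and 0.26 in the anti-Lag3 samples. An unadjusted p under 0.05 was reached by 17 upward (20%, against 2.99% of all genes) and by 2 downward (2.35%, against 2.97%). At 12 h the median was 0.09, and 0.05 without anti-Lag3 1, with 33 of 201 upward at that level (16.4%, against 2.99% of all genes) and 4 downward (1.99%, against 2.97%). The lists of genes lowered by the strong dose had negative medians. At 4 h, 23 of 287 reached an unadjusted p under 0.05 downward (8.01%, against 2.97% of all genes) and 6 upward (2.09%, against 2.99%). The 4 h list had a median of −0.07, with −0.12 and −0.03 in the anti-Lag3 samples. That median was −0.13 without anti-Lag3 2 and −0.0151 without isotype 2. The median was −0.14 at 12 h over 100 genes and −0.08 at 24 h over 67 genes, and at 24 h it was −0.205 without anti-Lag3 2 and −0.05 without isotype 2. These shares are a description beside the shares over all genes, since genes that respond together are not independent of each other. The lists of different times also share genes, by the study *Il21*, *Il12rb2*, *Tbx21*, *Maf* and *Malt1* among them, so they do not add to each other as separate evidence.

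Of 24 quiescence and lymphoid homing genes, 16 had a negative log2 fold change and 4 an unadjusted p under 0.05 downward (16.7%, against 2.97% of all genes), with a median of −0.09. *Satb1*, a chromatin organizer, was the 1 member at that level upward (4.17%, against 2.99%), at 1078 and 998 CPM with isotype and at 1176 and 1190 CPM with anti-Lag3. The class median lay at −0.158 in anti-Lag3 1 and at −0.0119 in anti-Lag3 2, and the fitted median ran from −0.20 without anti-Lag3 2 to −0.02 without isotype 1 and without anti-Lag3 1. Single genes of this and of other classes follow. *Ltb*, which encodes lymphotoxin beta, was at 50.4 and 60.4 CPM with isotype and at 32.5 and 26.0 CPM with anti-Lag3 (log2 fold change −0.93, standard error 0.23, adjusted p = 0.298 by edgeR). *Foxp1*, a transcription factor of resting T cells, was at 631 and 664 CPM against 542 and 503 CPM, with a log2 fold change of −0.31. *Gata3*, the T helper 2 factor, was at 21.7 and 47.5 CPM against 12.7 and 22.3 CPM and overlapped. *Ptpn6*, which encodes the phosphatase SHP-1, was at 228 and 220 CPM against 159 and 192 CPM. It was lower again with anti-PD1, at 123 and 106 CPM (log2 fold change −0.62 from anti-Lag3, standard error 0.14, adjusted p = 0.0248 by edgeR). *Ptpn6* and *Cd5* are in the class of negative regulators of T cell receptor signaling, whose median was −0.03. Of its 24 genes, 3 reached an unadjusted p under 0.05 upward (12.5%, against 2.99% of all genes) and 3 downward (12.5%, against 2.97%).

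The genes ranked next by unadjusted p among those with separate groups, none of them called by edgeR, did not share 1 functional class. On the higher side were *D030056L22Rik*, *Serpinb6b*, *Il21*, *mt-Nd1*, *Icos*, *Malt1*, *Crybg1* and *Tpi1*. Of these, the text of the study names *Il21*, *Icos* and *Malt1* as higher with the strong peptide dose. *Serpinb6b*, a serine protease inhibitor, was at 64.1 and 58.4 CPM with isotype and at 86.9 and 111 CPM with anti-Lag3. Anti-PD1 lay above both at 175 and 178 CPM (adjusted p = 0.00269 against anti-Lag3 by edgeR). In its class of granzymes, perforin and serpins 8 of 12 genes were lower with anti-Lag3, and the median was −0.27. *Crybg1* was at 54.7 and 38.2 CPM against 78.9 and 71.7 CPM. On the lower side were *Nol6*, *2010320M18Rik*, *Ltb*, *Mast4*, *Ncoa7*, *Scpep1*, *Sp110*, *Atf4*, *C1qa* and *Dock2*. *Nol6*, a nucleolar protein, was at 67.4 and 83.7 CPM with isotype and at 39.2 and 44.6 CPM with anti-Lag3 (log2 fold change −0.85, standard error 0.20, adjusted p = 0.138 by edgeR). *Dock2*, an activator of the GTPase RAC in lymphocytes, was at 129 and 132 CPM against 90.7 and 88.0 CPM.

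The list of interferon-stimulated genes held 6 of 45 tested at an unadjusted p under 0.05 upward (13.3%, against 2.99% of all genes). None of the listed genes reached it downward (against 2.97%). The list does not hold every interferon-induced gene, and *Sp110*, among the falls above, is not on it. *Samhd1* was the one called by edgeR. Both anti-Lag3 samples lay above both isotype samples in 16 of the 45 genes (35.6%, against 17.3% of all genes). *Ddx58*, which encodes the RNA sensor RIG-I, was at 10.8 and 8.86 CPM with isotype and at 20.2 and 18.2 CPM with anti-Lag3. *Trim30a* was at 305 and 296 CPM against 404 and 331 CPM. The class median was only 0.04, and 39 of the 45 genes were lower in anti-Lag3 2 than in anti-Lag3 1, with a median difference of −0.30. Without anti-Lag3 2 the class median was 0.24.

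Among the housekeeping and metabolic classes the median shifts were small. Of 80 cytosolic ribosomal protein genes 55 were above isotype, and the class median was 0.04 on the log2 scale. An unadjusted p under 0.05 was reached upward by 7 of the 80 (8.75%, against 2.99% of all genes) and downward by none (against 2.97%). Glycolysis and hypoxia-linked genes had a class median of 0.07. At that level 4 of 24 were higher (16.7%, against 2.99%), namely *Tpi1*, *Slc2a1*, *Hif1a* and *Gapdh*, and none was lower. *Tpi1*, a glycolytic enzyme, was at 119 and 121 CPM with isotype and at 151 and 192 CPM with anti-Lag3. DNA replication genes had a median of 0.04, genes of mitosis −0.05, MYC and ribosome biogenesis genes −0.06, and proteasome subunits 0.07. No gene of these classes was called by edgeR. Anti-Lag3 2 lay above anti-Lag3 1 in 32 of 40 genes of mitosis and 33 of 48 of MYC and ribosome biogenesis. It did so in 27 of 32 proteasome subunits, against 5984 of 11877 genes tested. In DNA replication genes it was 23 of 45, and in ribosomal protein genes 36 of 80. The median of mitosis genes against isotype was −0.143 in anti-Lag3 1 and 0.00457 in anti-Lag3 2.

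**Figure D4:**
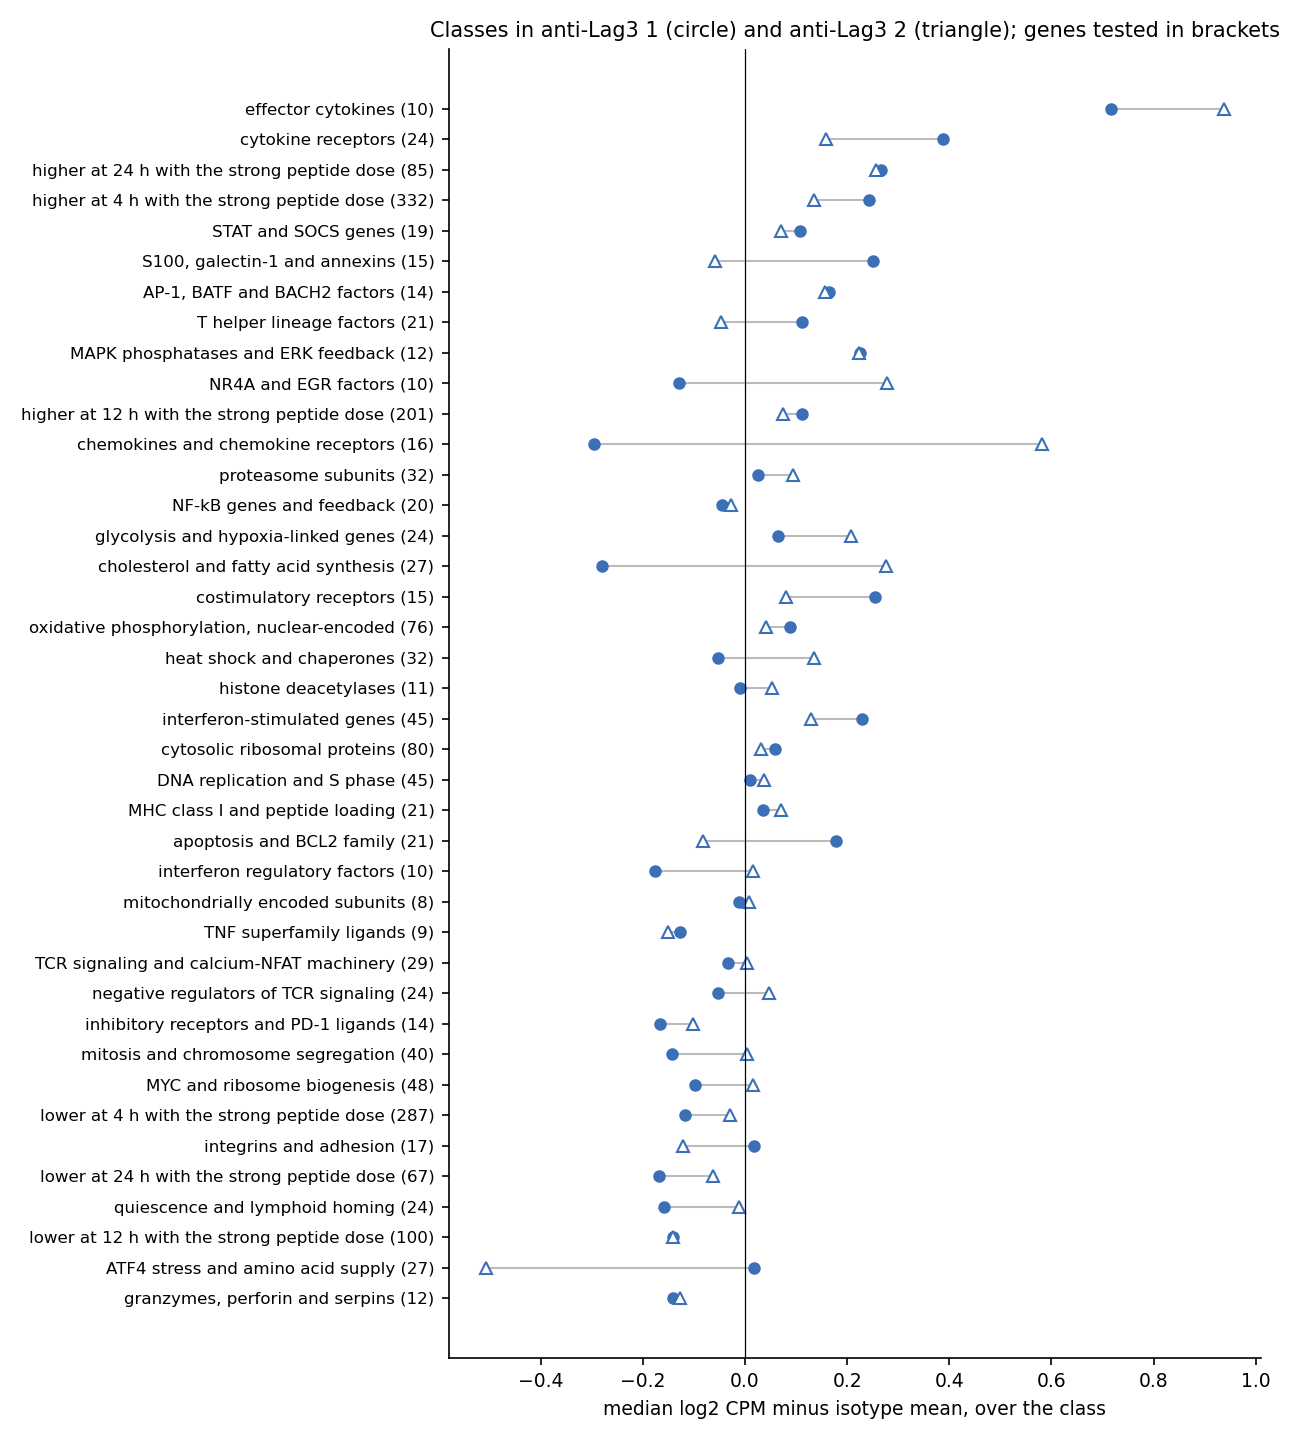
Median over the genes of each class of the log2 CPM in anti-Lag3 1 (circle) and in anti-Lag3 2 (triangle) minus the mean of the isotype samples, for classes with at least 8 genes tested (number in brackets), ordered by the fitted median. The samples lie on opposite sides of isotype for cholesterol synthesis (−0.28 and 0.28) and for chemokines and their receptors (−0.295 and 0.58), and in ATF4 and amino acid genes anti-Lag3 2 lies at −0.51 while anti-Lag3 1 lies at 0.02.

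The anti-Lag3 samples parted from each other in several classes, a pair of metabolic programs among them. ATF4 is the transcription factor of the integrated stress response, which answers amino acid shortage by raising genes of amino acid transport, amino acid synthesis and transfer RNA charging. Of 27 such genes tested, 24 had a negative fitted log2 fold change and 7 an unadjusted p under 0.05 downward (25.9%, against 2.97% of all genes), with a median of −0.225. The median lay at 0.02 against isotype in anti-Lag3 1 and at −0.51 in anti-Lag3 2, and 24 of 27 genes were lower in anti-Lag3 2 than in anti-Lag3 1. Without anti-Lag3 2 the class median was 0.02, and without anti-Lag3 1 it was −0.52. With anti-Lag3 1 left out, 6 of the 19 genes that edgeR called were members (*Asns*, *Atf4*, *Chac1*, *Nars*, *Sesn2* and *Trib3*), and in the fit of all samples none was.

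In 8 of the 27 genes both anti-Lag3 samples lay below both isotype samples (29.6%, against 17.3% of all genes), and in none did both lie above. *Atf4* itself was at 623 and 593 CPM with isotype and at 488 and 414 CPM with anti-Lag3 (log2 fold change −0.43, standard error 0.11, adjusted p = 0.334 by edgeR). Between anti-PD1, at 594 and 847 CPM, and anti-Lag3 it was called (log2 fold change 0.68, standard error 0.11, adjusted p = 0.00141 by edgeR). *Ddit3*, which encodes the stress factor CHOP, was at 26.4 and 36.2 CPM with isotype and at 13.5 and 15.2 CPM with anti-Lag3. In others the low value stood in anti-Lag3 2 alone. *Trib3*, a pseudokinase that restrains ATF4, was at 27.3 and 38.6 CPM with isotype and at 34.2 and 5.94 CPM with anti-Lag3. *Sesn2*, an inhibitor of mTORC1, was at 15.1 and 21.7 CPM against 29.5 and 3.71 CPM.

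Some ATF4 genes also varied between replicates of the other groups. *Chac1*, a glutathione-degrading enzyme, was at 6.6 and 27.8 CPM in the isotype samples, at 9.70 and 2.23 CPM in the anti-Lag3 samples and at 24.0 and 41.7 CPM in the anti-PD1 samples, and it was called between anti-PD1 and anti-Lag3 (log2 fold change 2.5, adjusted p = 0.00396 by edgeR). *Trib3* was at 11 and 40.5 CPM with anti-PD1. The largest falls from anti-Lag3 1 to anti-Lag3 2 among genes at 20 CPM or more were in *Trib3* (−2.37 on the log2 scale), *Eif4ebp1* (−2.08), *Gm12534* (−1.71), *Neat1* (−1.69), *Pck2* (−1.67) and *Rnf214* (−1.43). *Eif4ebp1*, which encodes the translation repressor 4E-BP1, was at 75.1 and 17.1 CPM in the anti-Lag3 samples and at 66.4 and 48.3 CPM in the isotype samples. *Pck2*, a mitochondrial enzyme, was at 27.8 and 8.17 CPM against 37.2 and 28.6 CPM.

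Cholesterol and fatty acid synthesis went the other way between the same samples. Of 27 genes tested, 21 were higher in anti-Lag3 2 than in anti-Lag3 1, with a median difference of 0.61 on the log2 scale, whereas the isotype samples differed by 0.13. Relative to isotype the class median was −0.28 in anti-Lag3 1 and 0.28 in anti-Lag3 2, and the fitted median was 0.07. *Sqle*, the epoxidase of sterol synthesis, was at 17.4 and 20.9 CPM with isotype and at 19 and 44.9 CPM with anti-Lag3. *Hmgcs1*, an early enzyme of the mevalonate pathway, was at 58.4 and 66.8 CPM against 44.7 and 91.7 CPM. *Insig1*, which retains the sterol sensor in the endoplasmic reticulum, was at 13.2 and 7.25 CPM against 6.33 and 29.7 CPM. No gene of the class was called by edgeR, and without anti-Lag3 2 the class median was −0.29. Chemokines and their receptors also differed, with 11 of 16 genes higher in anti-Lag3 2 and a median difference of 0.48, and their fitted median of 0.09 was 0.52 without anti-Lag3 1 and −0.36 without anti-Lag3 2.

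**Figure D5:**
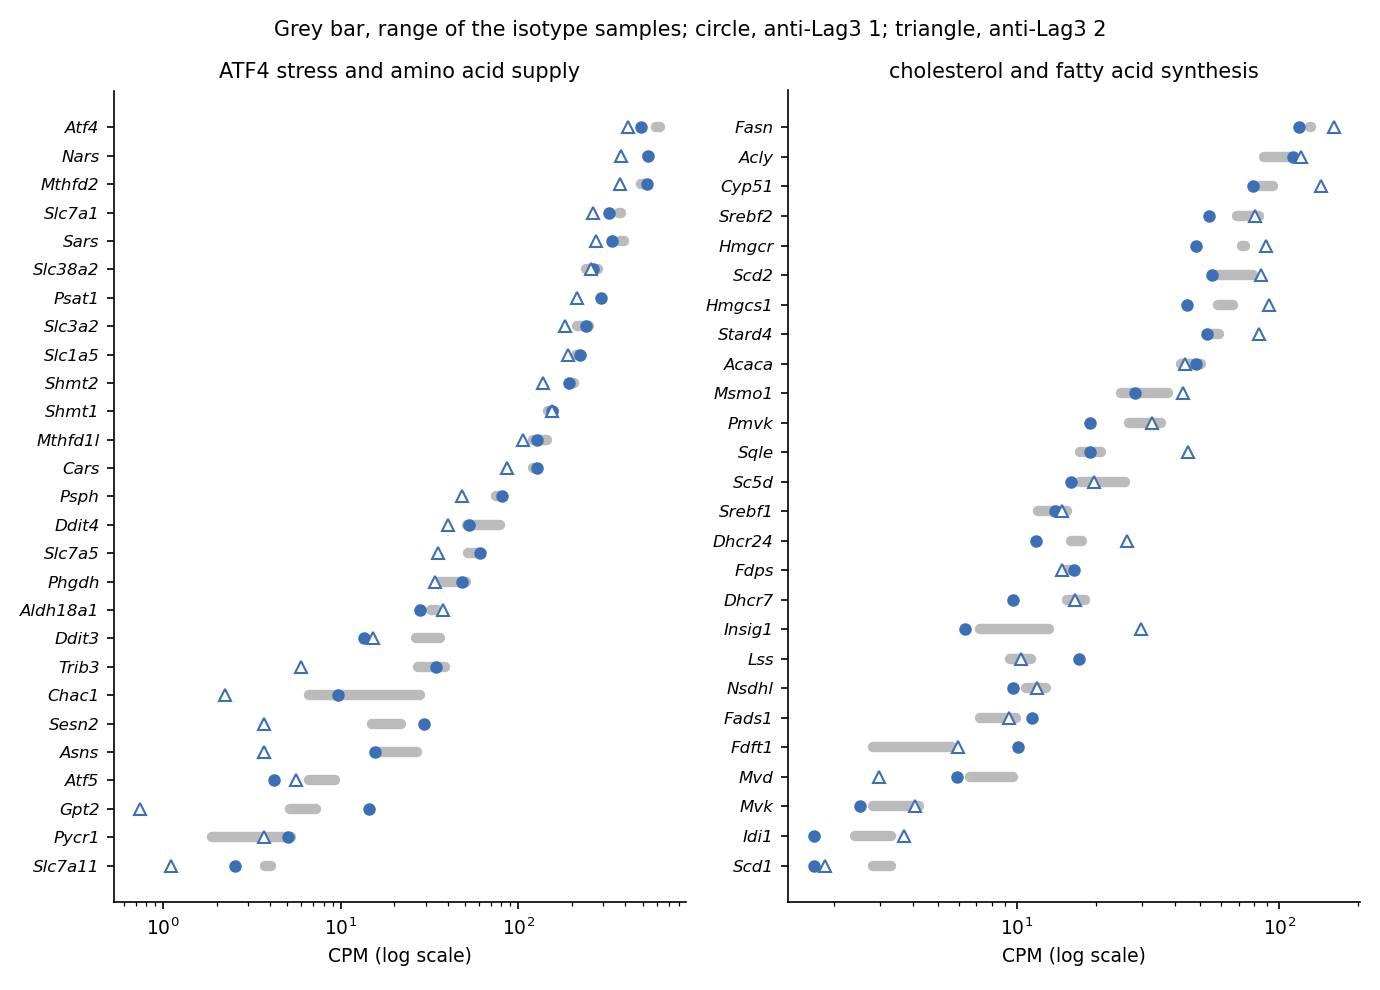
CPM on a log axis of the 27 ATF4 and amino acid genes (left) and of 26 cholesterol and fatty acid genes (right), with a grey bar for the range of the isotype samples, a circle for anti-Lag3 1 and a triangle for anti-Lag3 2. On the left 24 triangles lie below their circles, and on the right 20 lie above.

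The promoters of members in which the anti-Lag3 samples differed are shown for the motifs that define these programs, TGATGNAA for the CARE element bound by ATF4 and TCACNCCAC for the sterol element bound by SREBP, again over 250 bases before the start and on both strands (RefSeq, GRCm38.p6). Matches to the CARE motif are in capitals in *Asns* (chr6:7693210-7693459, minus strand) and *Chac1* (chr2:119350992-119351241, plus strand), and the match to the sterol motif is in capitals in *Hmgcs1* (chr13:119690101-119690350, plus strand).
Asns: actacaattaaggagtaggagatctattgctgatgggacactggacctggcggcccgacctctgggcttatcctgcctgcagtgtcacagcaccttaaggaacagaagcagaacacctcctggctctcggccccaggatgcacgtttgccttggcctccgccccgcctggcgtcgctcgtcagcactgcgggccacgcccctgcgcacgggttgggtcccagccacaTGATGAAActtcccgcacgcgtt
Chac1: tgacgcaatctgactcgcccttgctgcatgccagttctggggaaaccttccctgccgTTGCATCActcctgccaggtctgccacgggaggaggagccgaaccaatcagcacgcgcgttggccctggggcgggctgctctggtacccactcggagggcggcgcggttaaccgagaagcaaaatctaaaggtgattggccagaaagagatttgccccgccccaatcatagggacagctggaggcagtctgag
Hmgcs1: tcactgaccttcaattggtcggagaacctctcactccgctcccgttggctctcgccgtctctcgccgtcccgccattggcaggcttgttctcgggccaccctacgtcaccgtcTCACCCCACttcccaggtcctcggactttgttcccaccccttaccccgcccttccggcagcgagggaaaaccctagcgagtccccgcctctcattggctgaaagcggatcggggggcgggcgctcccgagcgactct
The CARE motif was held by 4 of 26 windows of the ATF4 class (15.4%, over the 23 genes with a window) and by 3.45% of all 32851 windows. The sterol motif was held by 1 of 22 windows of the cholesterol class (4.55%, over 17 genes) and by 1.05% of all windows. *Asns*, asparagine synthetase, was at 26.9 and 15.7 CPM with isotype and at 15.6 and 3.71 CPM with anti-Lag3.

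Markers of other cells were found at differing levels in all libraries. Of 9 B cell markers tested, all had a negative log2 fold change with anti-Lag3. An unadjusted p under 0.05 was reached by 4 (44.4%, against 2.97% of all genes lower). The median over the 9 was −1.72, and none was called by edgeR. Their summed level was 129 and 138 CPM with isotype and 83.1 and 126 CPM with anti-Lag3, most of it *Ighm*, which was at 82.5 and 95.8 CPM against 70.0 and 108 CPM. *Cd79a* had 0 reads in all 6 libraries. Of 9 macrophage and monocyte markers, 8 were lower, at a summed 82.0 and 66.0 CPM with isotype and 41.7 and 42.3 CPM with anti-Lag3, with *C1qa* at 12.7 and 11.7 CPM against 2.11 and 2.97 CPM. The 4 dendritic cell markers tested were MHC class II genes (*H2-Aa*, *H2-Ab1*, *H2-Eb1*) and *Cd74*, which are not particular to dendritic cells. All 4 were lower, at a summed 45.7 and 60.0 CPM with isotype and 19.4 and 47.9 CPM with anti-Lag3. *Flt3*, *Itgax* and *Xcr1* had too few reads to be tested, and *Zbtb46*, *Clec9a* and *Siglech* had 0 reads. Both CD8 T cell markers were lower too, at a summed 54.7 and 48.3 CPM against 33.7 and 32.7 CPM. The 4 plasma cell markers tested had positive log2 fold changes, 3 of them with separate groups (75%, against 17.3% of all genes higher). Their summed level was 310 and 284 CPM with isotype and 361 and 321 CPM with anti-Lag3. Most of it was *Irf4*, which activated T cells also express, as they do *Prdm1*. *Jchain* and *Mzb1*, the other listed plasma cell markers, had 7 and 9 reads over all 6 libraries and were not tested. The part of these cells in the differences between the groups was not tested, and in sorted bulk samples fewer cells of a type and less RNA per cell cannot be told apart.

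Between anti-PD1 and anti-Lag3, 29 of the 36 called genes were higher with anti-PD1 and 7 lower. Of the 5 genes called between anti-Lag3 and isotype, *Tnip3* and *Il12rb2* were among the 36 and *Samhd1*, *Hdac7* and *Gm42418* were not. The others on the higher side included *Irf8*, *Tnfrsf9*, *Serpinb6b*, *Crybg1*, *Gm12534* and *Atf4*, and *Ptpn6* was on the lower side. A difference that missed the threshold does not show that both antibodies acted alike.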

How the data were processed

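The authors sorted CD4+ Timer-Blue+Timer-Red+ T cells, isolated RNA with the PicoPure kit and made 3′ libraries with the Lexogen QuantSeq forward kit, read on a NextSeq 500. Per the submitters' processing notes and the methods, reads were trimmed with Bbduk, aligned with STAR 2.5.2a to GRCm38 (mm10) and counted per gene with HTSeq. The strand setting and the annotation release are not given in the sources used here. The deposited values are raw counts per gene, not normalized, for 6 samples and 47643 gene IDs, of which 47224 were matched to a gene name through the annotation. A log-transformed table of the same samples was not used. A 3′ library gives about 1 read per transcript whatever its length, and CPM were compared only between samples.

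A gene was kept if its reads over the 6 samples summed to 10 or more. edgeR 4.0.16 in R 4.3.3 fitted 3 groups of 2 samples with TMM scaling and the quasi-likelihood test (common dispersion 0.016), with Benjamini-Hochberg adjustment over 11877 genes and a threshold of 0.05. All 6 samples share 1 estimate of spread. CPM are TMM-scaled. Differences between samples used log2 CPM with a prior count of 0.5, or of 2 to rank single genes that differed between the anti-Lag3 samples. Genes were named by rule: those called, the 12 of smallest p in each direction with separate groups, a set of receptors and signaling genes, the leading and most abundant members of each class, and the 6 of largest difference in each direction between the anti-Lag3 samples at 20 CPM or more. The genes over 1 on the log2 scale were named after their values were seen. Members and lists were chosen with earlier results of these data known. Alternatives used DESeq2 1.42.0, limma 3.58.1, other scalings and filters, and left out each sample in turn. The fits were also run on counts simulated with the dispersion of this fit, which cannot show that the model holds for these samples. A member of the cholesterol class is counted in its summaries and not reported here singly.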

Additional observations from a re-analysis of the deposited data

How the results depend on the processing

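Depth limits genes under about 20 CPM, and 2 samples a group limit every call. The count of 5 between anti-Lag3 and isotype was 1 with DESeq2 (278 genes at an unadjusted p under 0.05), 0 with the newer edgeR quasi-likelihood fit (794 at that level), 0 with the filterByExpr filter in edgeR (592), 20 with genes of at least 1 read, 0 with only the 4 samples (653), and 3 without *Gm42418* and the mitochondrial ribosomal RNA, an alternative chosen after seeing the data. It was 0 to 19 when samples were left out 1 at a time. It was 4 to 6 with limma-voom, DESeq2 size factors, upper-quartile scaling and an adjusted p under 0.1. The 6 genes of limma-voom shared only 3 with the 5 (*Gm42418*, *Hdac7* and *Samhd1*), and the others were *Actb*, *mt-Nd1* and *mt-Rnr1*. By limma-voom the adjusted p was 0.054 for *Tnip3* and 0.201 for *Il12rb2*. The count of 36 between anti-PD1 and anti-Lag3 was 16 with DESeq2, 58 with at least 1 read and 7 to 59 with samples left out (11 without anti-PD1 1, 7 without anti-PD1 2, 59 without anti-Lag3 1, 23 without anti-Lag3 2). The count of 107 between anti-PD1 and isotype was 175 with only the 4 samples, 166 at an adjusted p under 0.1, and 53 to 185 with samples left out. The median difference between the anti-Lag3 samples, 0.321, was 0.188 at 20 CPM or more, 0.304 with a prior count of 2 and 0.263 with a prior count of 5. Where no construction shows it, the cause was not tested. The study describes the samples of its omitted batch as sorted and processed together, and the sources used here do not say whether the numbers 1 and 2 mark such batches. Differences between replicates correlated across groups at 0.014, 0.022 and −0.012 over genes, which shows no common deviation and does not settle it. With the replicate block the counts were 6, 46 and 144, in the same order, with *Tnfrsf18* added between anti-Lag3 and isotype and no call lost there.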
